A study of Bos taurus with 39 samples.

Results

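Denuded oocytes (DO) are bovine oocytes that were stripped of their cumulus cells before in vitro maturation and then matured alone. All libraries labelled as denuded at 1, 6 or 22 h were taken, 3 per time point, which gave 9 of the 39 libraries of the series. The other groups matured as cumulus-oocyte complexes (control), as complexes with carbenoxolone, a blocker of gap junctions (CBX), or as denuded oocytes sharing medium with complexes without contact (cocult), and they are used here only where their change over time was set against that of the DO group. Oocytes of all groups came from slaughterhouse ovaries and matured in serum-free medium with epidermal growth factor. For the DO group, cumulus cells were taken off by vortexing in hyaluronidase before culture and the zona was removed with pronase after it, so the group models maturation without cumulus contact and also carries this handling. Each library is a pool of oocytes from separate collections, and the 3 time points are separate pools, not the same oocytes followed over time. The study describes picking oocytes with a visible polar body after maturation and does not say at which times. Any part of this selection in the differences between times was not tested. The labels do not say what a replicate number marks, so p-values measure the spread between these libraries.

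MicroRNAs (miRNAs) are short RNAs that guide Argonaute proteins to messenger RNAs, mostly through the seed, bases 2 to 8 from the 5′ end, and lower their translation or stability. An oocyte that resumes meiosis moves from the germinal vesicle stage through germinal vesicle breakdown to metaphase II, the stages at which the 3 times were aimed, and does so almost without new transcription, using RNA stored during growth. In the complex, cumulus cells reach the oocyte through gap junctions, a route that is absent in the DO group.

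The 9 libraries held between 32676 and 175429 miRNA counts, with a median of 75302. The second replicate at 1 h was the shallowest and had the lowest mean correlation with the other DO libraries, 0.864, against 0.893 to 0.919 in the other 8. Of 1995 miRNAs in the tables, 1030 are known from miRBase and 965 were predicted by the authors, and 1279 had at least 1 count in a DO library, 1046 of them at all 3 times. Known miRNAs took 39.9% to 44.2% of the counts. A count of 3, taken as the floor, was worth 17.7 to 91.9 CPM (counts scaled to a common library total, normalized for composition) and covers counting error only. Because an RNA pool from whole oocytes was sequenced, fewer cells of a type and less RNA per cell cannot be told apart.

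The predicted miRNAs that passed the threshold between 1 h and 22 h are little described, so the mature sequences listed by the study are given for 4 of them, with the seed in capitals.
Predicted miR-559: gGCGCGCCcccgccgcgc
Predicted miR-318-0: gCGCGCCCccgccgcgcg
Predicted miR-895: gCGCCCCCggggccgcgg
Predicted miR-723: uACAGGCUuguuagguca
Their predicted loci in ARS-UCD1.2 are chr27:6219131-6219238 on the minus strand for miR-559, and on the plus strand chr17:69639696-69639803 for miR-318-0, chr9:93405029-93405136 for miR-895 and chr4:97883770-97883877 for miR-723. Gene annotation at these loci was not used here. No seed was shared among the 4, but predicted miR-559 and predicted miR-318-0 had in common a run of 17 bases, GCGCGCCCCCGCCGCGC, which begins at base 2 of the former and base 1 of the latter. Both shared with predicted miR-895 the run GCGCCCCCG of 9 bases. These 3 consist of G and C alone, at 100% GC, whereas predicted miR-723 has 44.4%. Only mature sequences were compared, not the loci. Reads that match the run of 17 bases could be split or repeated by the counting, which was not tested. The counts of predicted miR-560, whose sequence the study does not list, equalled those of predicted miR-559 in all 9 DO libraries.

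Between 1 h and 22 h, 442 miRNAs were tested, 108 known and 334 predicted, and 8 passed the threshold of an adjusted p under 0.05 and a log2 fold change of 1 or more in size (edgeR quasi-likelihood F-test, Benjamini-Hochberg adjustment, replicate number as block). That is 1.81% of those tested, with 7 higher at 22 h (1.58%) and 1 lower (0.226%). The 7 higher ones were bta-miR-155 and predicted miR-559, miR-560, miR-835, miR-318-0, miR-319 and miR-895, and the lower one was predicted miR-723. With identical count profiles counted once, 7 distinct miRNAs were left. The median log2 fold change of all 442 was -0.01.

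**Figure D1:**
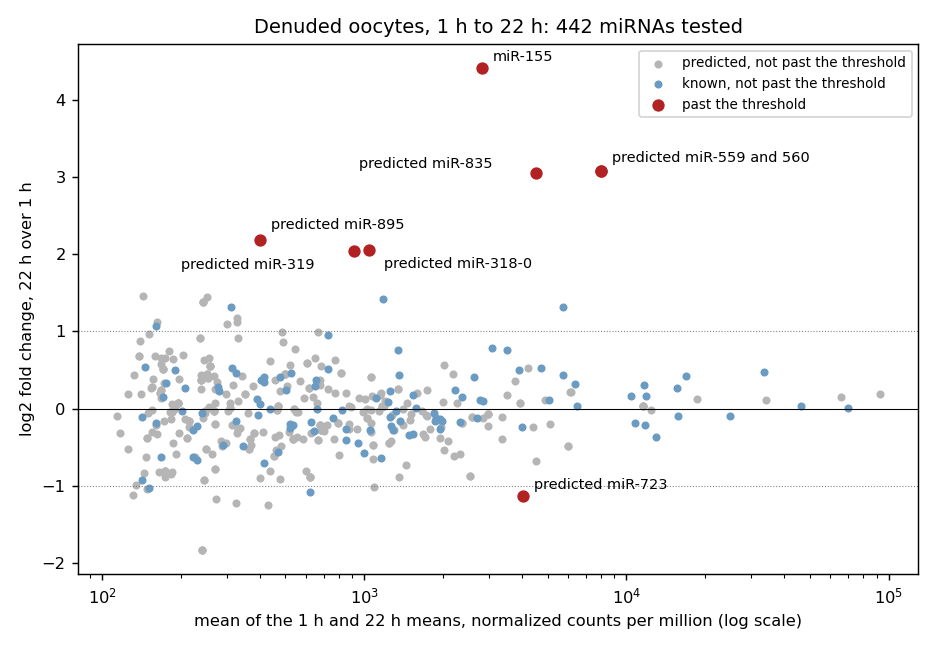
Log2 fold change from 1 h to 22 h in denuded oocytes (vertical axis) against the mean level in normalized CPM (horizontal log axis), 1 point per tested miRNA, with red points past the threshold. The 7 miRNAs that were higher at 22 h lie between 2.04 and 4.41, predicted miR-723 lies at -1.13, and dotted lines mark changes of 1 and -1.

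Bta-miR-155, best known for its induction in activated immune cells, was the only known miRNA past the threshold. Its normalized levels at 1 h were 89.0, 582 and 203 CPM in replicates 1, 2 and 3, resting on 8, 19 and 17 counts. At 6 h they were 994, 554 and 467 CPM, and at 22 h they were 2851, 7963 and 5237 CPM. Every library at 22 h lay above every earlier one, while the 1 h and 6 h libraries overlapped. From 1 h to 22 h the log2 fold change was 4.41 ± 0.33 (SE, n = 3 per time), with an adjusted p of 1.9e-05 by edgeR, and the ratio of the means was 18.4. By mean level its rank among all miRNAs went from 301 at 1 h to 33 at 22 h.

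Predicted miR-559, with the same values as predicted miR-560, had the highest mean level of the called miRNAs at 6 h and 22 h, while predicted miR-723 did at 1 h. Predicted miR-559 was at 1846, 613 and 3133 CPM at 1 h, at 2277, 4482 and 3060 CPM at 6 h, and at 13970, 11223 and 17142 CPM at 22 h. The libraries at 22 h were all above those at 1 h and 6 h, and the lowest value, in the second replicate at 1 h, came from the shallowest library. The log2 fold change from 1 h to 22 h was 3.08 ± 0.32 (SE, n = 3 per time) with an adjusted p of 0.00021 by edgeR, and the mean rose 7.57-fold.

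Predicted miR-835 ran beside predicted miR-559, at 0.50 to 0.66 of its counts in the 9 libraries (median 0.59). Its levels were 1224, 337 and 1555 CPM at 1 h, 1453, 2924 and 1647 CPM at 6 h, and 8582, 6677 and 8772 CPM at 22 h. Again no library at 22 h overlapped with an earlier time. The log2 fold change from 1 h to 22 h was 3.05 ± 0.34 (SE, n = 3 per time), with an adjusted p of 0.00025 by edgeR.

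Predicted miR-318-0, whose sequence is the run shared with predicted miR-559 plus 1 base at the 3′ end, was at 356, 306 and 419 CPM at 1 h, at 412, 1125 and 535 CPM at 6 h, and at 741, 2185 and 2265 CPM at 22 h. The 1 h libraries were the tightest group of this miRNA and lay below all libraries at 22 h, but 6 h and 22 h overlapped. Its change was 2.05 ± 0.40 on the log2 scale (SE, n = 3 per time), with an adjusted p of 0.025 by edgeR. Predicted miR-319 held 0.77 to 0.91 of its counts, and changed by 2.04 ± 0.40 (SE) on the log2 scale with an adjusted p of 0.025. The counts of predicted miR-318-0 were 0.05 to 0.50 of those of predicted miR-559, so these 2 did not keep a fixed ratio over the libraries.

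Predicted miR-895 was the least abundant of the miRNAs called. Its raw counts were 7, 8 and 9 at 1 h, 12, 10 and 18 at 6 h, and 19, 52 and 49 at 22 h, or 78, 245 and 108 CPM at 1 h against 271, 916 and 787 CPM at 22 h. The times did not overlap, but the lowest library at 22 h was close to the highest at 1 h. The log2 fold change was 2.19 ± 0.43 (SE, n = 3 per time), with an adjusted p of 0.025 by edgeR. Without the replicate block it was 2.33 with an adjusted p of 0.12, and the call was lost.

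Predicted miR-723 was the only miRNA called lower at 22 h. Its levels were 5706, 5882 and 4975 CPM at 1 h, 3089, 2786 and 2456 CPM at 6 h, and 2908, 2202 and 2603 CPM at 22 h. All 6 later libraries lay below the 3 at 1 h, and 6 h and 22 h overlapped. From 1 h to 22 h it fell by 1.13 ± 0.24 on the log2 scale (SE, n = 3 per time), with an adjusted p of 0.035 by edgeR, and the ratio of the means was 0.466.

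**Figure D2:**
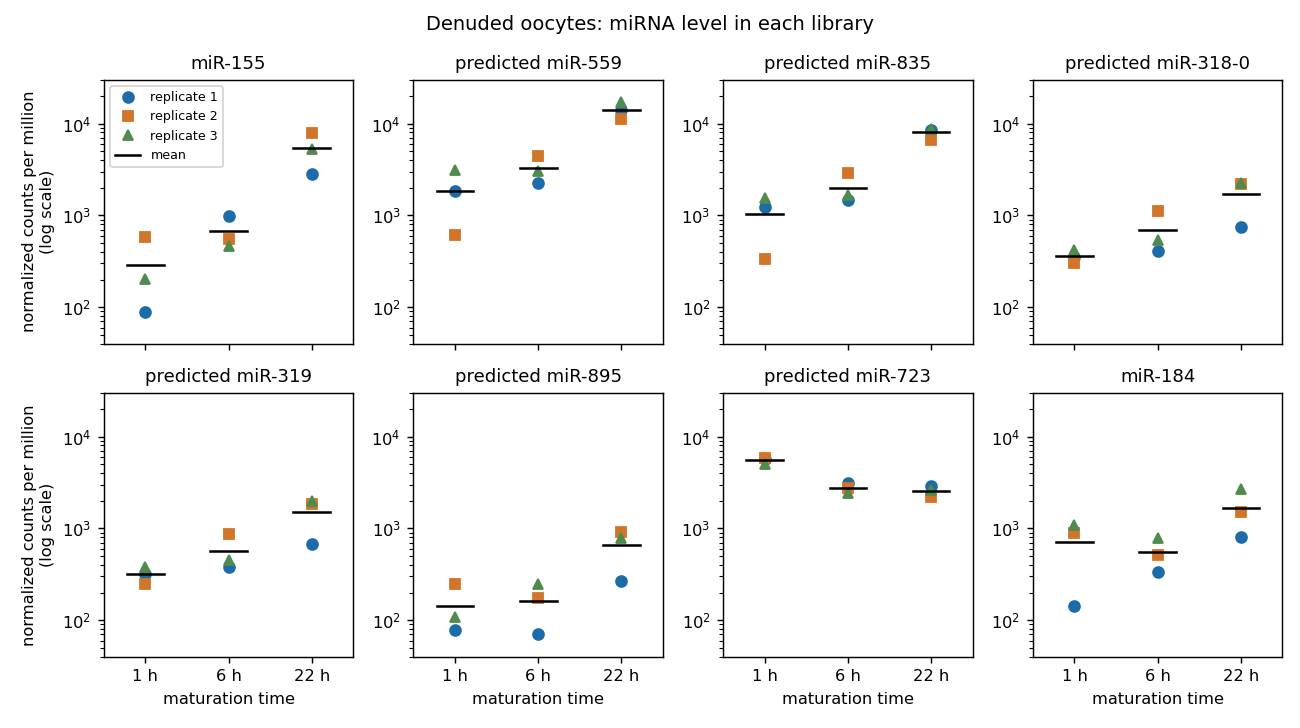
Normalized level in CPM (vertical log axis) of 7 called miRNAs and bta-miR-184 in each DO library at 1, 6 and 22 h, with 1 symbol per replicate and a bar at the mean of 3. Levels at 22 h lie above those at 1 h in all 3 replicates for the 7 miRNAs other than predicted miR-723, which stands at 4975 to 5882 CPM at 1 h and 2202 to 2908 CPM at 22 h.

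The groups did not overlap for any of the 8 called miRNAs, a property that 8.82% of the 442 tested miRNAs had towards higher and 8.14% towards lower values. These calls depended on which libraries entered. Without replicate 3 of both times no miRNA passed, and bta-miR-155 then had a log2 fold change of 4.25 with an adjusted p of 0.088. Without replicate 2 of both times 52 passed, 34 higher and 18 lower, among them 7 of the 8. Without the shallow second replicate at 1 h, a setting chosen after seeing the data and fitted without the block, 8 passed and 6 of them were among those above. The 2 calls lost were predicted miR-318-0, with a log2 fold change of 2.17, and predicted miR-319, with 2.10, both with an adjusted p of 0.061.

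A further 3 profiles did not pass the threshold and were named after their values were seen. Bta-miR-184, a conserved miRNA abundant in the lens and cornea, was at 145, 888 and 1100 CPM at 1 h, 335, 519 and 796 CPM at 6 h, and 798, 1498 and 2667 CPM at 22 h. It was higher at 22 h in 3 of 3 replicates, as were 85 of the 442 miRNAs tested, although the times overlapped. The log2 fold change of bta-miR-184 was 1.41 ± 0.35 (SE), with an adjusted p of 0.098 by edgeR. Bta-miR-3432a went from 1613, 5146 and 3611 CPM to 9651, 7259 and 7085 CPM without overlap (1.31 ± 0.35, SE, adjusted p = 0.13). Predicted miR-589, which has the same counts as predicted miR-590, went from 3170, 3584 and 2978 CPM to 1825, 1956 and 1623 CPM, also without overlap (-0.88 ± 0.24, SE, adjusted p = 0.13).

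Split by step, neither interval gave a call with edgeR. From 1 h to 6 h, the interval aimed at germinal vesicle breakdown, 450 miRNAs were tested, 0 passed and 45 (10%) had an unadjusted p under 0.05, of which 13 were higher and 32 lower at 6 h. DESeq2 also called 0. The smallest adjusted p was 0.18, for predicted miR-723, with a log2 change of -0.98 ± 0.15 (SE). Its 3 libraries at 6 h lay below the 3 at 1 h, as did those of 5.78% of the miRNAs tested, against 9.11% with all 3 above. Without replicate 1, 6 miRNAs passed, 3 in each direction.

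From 6 h to 22 h, 415 miRNAs were tested with 0 calls, and 48 (11.6%) had an unadjusted p under 0.05, of which 37 were higher and 11 lower at 22 h. The smallest adjusted p was 0.054, shared by predicted miR-895 (2.02 ± 0.25, SE, on the log2 scale), bta-miR-184 (1.55 ± 0.20) and predicted miR-559 and miR-560 (2.19 ± 0.30). Bta-miR-155 changed by 2.93 ± 0.51 (SE) with an adjusted p of 0.12, and its 3 libraries at 22 h were above all 3 at 6 h, as for 8.67% of the miRNAs tested. This count rested on the settings, since DESeq2 called 7, the fit without the replicate block 5 and the fit without replicate 2 called 26, all of them higher at 22 h. The comparisons of 1 h with 6 h and 6 h with 22 h share the 6 h libraries.

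Set side by side, the estimate for bta-miR-155 was 1.52 (95% confidence interval 0.12 to 2.91) in the first step and 2.93 (1.65 to 4.20) in the second. For predicted miR-559 the steps were 0.86 (-0.36 to 2.08) and 2.19 (1.43 to 2.94). Predicted miR-895 stood at 0.29 (-0.87 to 1.45) and 2.02 (1.38 to 2.65). Predicted miR-723 had the opposite order, with -0.98 (-1.34 to -0.62) in the first step and -0.07 (-0.51 to 0.36) in the second. Whether the steps differ was not tested.

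**Figure D3:**
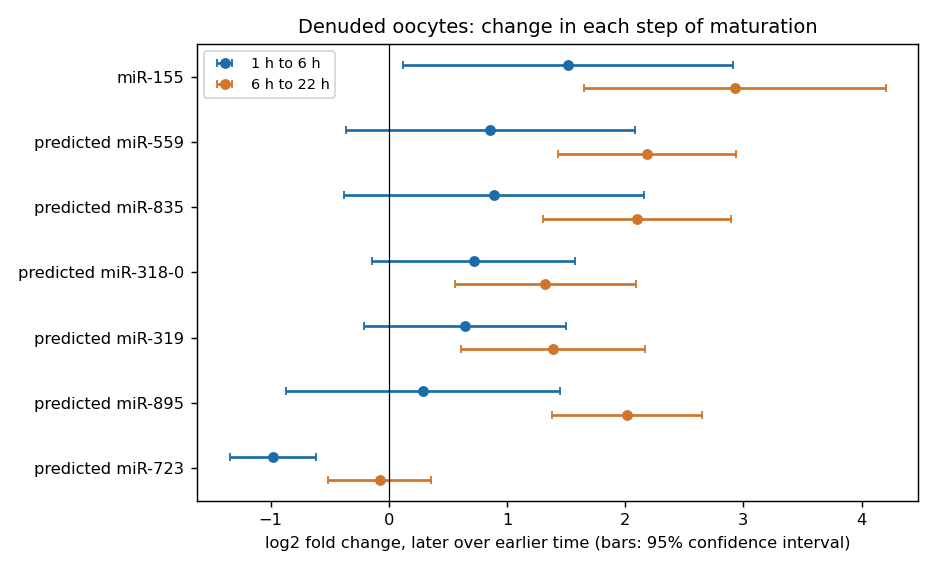
Log2 fold change in DO from 1 h to 6 h (blue) and from 6 h to 22 h (orange) for 7 called miRNAs, with 95% confidence intervals from edgeR. For the 6 miRNAs higher at 22 h the second-step estimate is the larger, from 1.32 to 2.93, and for predicted miR-723 the first step holds -0.98.

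Bta-miR-16b, bta-miR-10b and bta-miR-148a, which ranked 2, 4 and 6 by mean level at 1 h, were not called from 1 h to 22 h. Bta-miR-16b, of the miR-15/16 family known for repressing BCL2 and cyclins, was at 69589 ± 6827 CPM at 1 h (SD, n = 3) and at 71092 ± 6842 CPM at 22 h, and its log2 fold change was 0.00 (95% confidence interval -0.50 to 0.51). Bta-miR-10b, encoded within a Hox cluster, was at 45374 ± 6839 CPM and 47270 ± 4190 CPM (0.04, interval -0.47 to 0.55). Bta-miR-148a, known for repressing the DNA methyltransferase DNMT1, was at 27621 ± 4834 CPM and 39167 ± 7069 CPM, and its change of 0.47 (interval -0.06 to 1.01) did not pass (adjusted p = 0.52 by edgeR). The predicted miRNA with the most counts, predicted miR-212, which is a number in the authors' list and not bta-miR-212, changed by 0.19 (interval -0.33 to 0.72). Changes of over 1 on the log2 scale lie outside these intervals, except for bta-miR-148a, where the upper bound reaches that size.

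Known miRNAs were grouped in 13 lists of families, clusters and cell markers. Only the list of maturation-linked miRNAs, 13 arms linked to ovulation, stress or growth signalling, held a call, bta-miR-155, among 8 members tested from 1 h to 22 h. Of all 442 miRNAs tested 8 (1.81%) were called, 1 of them among the 108 known. The lists were drawn up with earlier results of these data known, so a call within this list is no evidence for it. The median change of the tested members of the list was -0.12, against -0.01 for all miRNAs, with a range from -0.47 to 4.41. Bta-miR-21-5p was the most counted member of the list, at 4049, 4258 and 3193 CPM at 1 h and 5531, 6501 and 4804 CPM at 22 h. The times did not overlap, but the change of 0.52 ± 0.22 (SE) did not pass (adjusted p = 0.43 by edgeR). Bta-miR-34c, a p53-responsive miRNA of germ cells, was at 1638 to 2970 CPM at 1 h and 1656 to 1799 CPM at 22 h.

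In the let-7 family, which represses growth-promoting messages such as those of RAS and LIN28, 8 of 9 members were tested and 0 were called in any step. From 1 h to 6 h, 7 of the 8 had an estimate below 0 (median -0.23, range -0.82 to 0.03). From 6 h to 22 h all 8 were above 0 (median 0.41, range 0.06 to 1.1). The medians of all miRNAs tested were 0.03 and -0.01. Both steps use the same 6 h libraries, so the 2 counts are not independent. Over the whole interval 4 were above and 4 below 0, with a median of -0.02. The summed family level at 1 h was 46694, 88376 and 56837 CPM, so the shallow second replicate stood highest, and it was 49859 to 57158 CPM at 6 h and 51378 to 64035 CPM at 22 h. Bta-let-7a-5p, the most counted member, was at 18720, 35963 and 22565 CPM at 1 h and 27784, 24137 and 19713 CPM at 22 h (-0.09, interval -0.65 to 0.47).

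None of the other family lists held a call. In the miR-17-92 and miR-106b-25 clusters, known for driving proliferation, 9 of 13 members were tested from 1 h to 22 h with a median change of 0.10, and bta-miR-92a, with the most counts, changed by 0.17 (interval -0.42 to 0.75). The miR-30 family had a median of 0.01 over 5 tested members, with bta-miR-30d at 10752 to 11679 CPM at 1 h and 10765 to 14327 CPM at 22 h. In the miR-15/16 family 5 of 7 estimates were below 0 (median -0.29). The miR-10, miR-99/100 and miR-125 families had 4 of 5 above 0 (median 0.18). The miR-148 and miR-200 families had 4 of 6 above 0 (median 0.42). For the miR-23/24/27 clusters the median was -0.07 over 4 members, led by bta-miR-27b at -0.24 (interval -0.75 to 0.27), and for the miR-26 and miR-29 families it was -0.04 over 2, led by bta-miR-26a at -0.18 (interval -0.65 to 0.29).

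Markers of other ovarian cell types were present at low level. No miRNA was taken as a defining marker of the oocyte, so the label itself rests on the protocol. The 11 granulosa and cumulus markers summed to 3247 to 3803 CPM at 1 h, 2924 to 3766 CPM at 6 h and 2894 to 4387 CPM at 22 h, with bta-miR-212 and bta-miR-450a at 0 in all 9 libraries, and 0 of 3 tested members were called. Bta-miR-202, a gonad miRNA of granulosa cells, was at 601, 1195 and 634 CPM at 1 h, 530, 415 and 206 CPM at 6 h and 171, 740 and 370 CPM at 22 h, a change of -1.08 ± 0.36 (SE) from 1 h to 22 h with an adjusted p of 0.28. Bta-miR-503-5p, the most counted of the list, changed by -0.28 (interval -1.11 to 0.54), and bta-miR-335 by 0.76 (interval 0.15 to 1.37, adjusted p = 0.34). The summed ranges of the 3 times overlap.

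The 7 theca and stroma markers summed to 1593 to 2136 CPM at 1 h and 1446 to 1924 CPM at 22 h, mostly bta-miR-143, and none was at 0 in every library. Blood and immune markers summed to 299 to 612 CPM at 1 h and 578 to 740 CPM at 22 h, mostly bta-miR-150, a lymphocyte miRNA, while bta-miR-144 and bta-miR-142-3p were at 0 throughout. At 6 h the second replicate reached 3201 CPM because bta-miR-223, a myeloid miRNA, had 155 counts there and 0 to 4 in the other 8 libraries. Bta-miR-142-5p, of blood cells, had 10 counts in that library and at most 1 elsewhere. Bta-miR-155, the called miRNA best known from immune cells, was at 554 CPM in that library, between the other 6 h values of 467 and 994 CPM.

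Among the marker lists, only the muscle sums differed without overlap between 1 h and 22 h. Of all 13 lists 3 did so, and 8.82% of the 442 single miRNAs tested were higher at 22 h without overlap. They were 89 to 191 CPM at 1 h, 106 to 220 CPM at 6 h and 271 to 1028 CPM at 22 h, with bta-miR-133b, bta-miR-208a and bta-miR-208b at 0 throughout. The most counted member was bta-miR-206, a skeletal muscle miRNA, with 3, 1 and 11 counts at 1 h, 7, 5 and 8 at 6 h, and 9, 16 and 57 at 22 h. The counts of bta-miR-206 at 1 h and 22 h thus overlapped. None of the 7 had enough counts to be tested from 1 h to 22 h in DO alone. Bta-miR-206 entered the fits over 12 libraries that set the DO change against another group. There it differed by 4.44 from cocult (adjusted p = 0.32 by edgeR), 3.65 from control (0.79) and 0.77 from CBX (0.97). The part of the muscle markers in the changes of the called miRNAs was not tested.

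**Figure D4:**
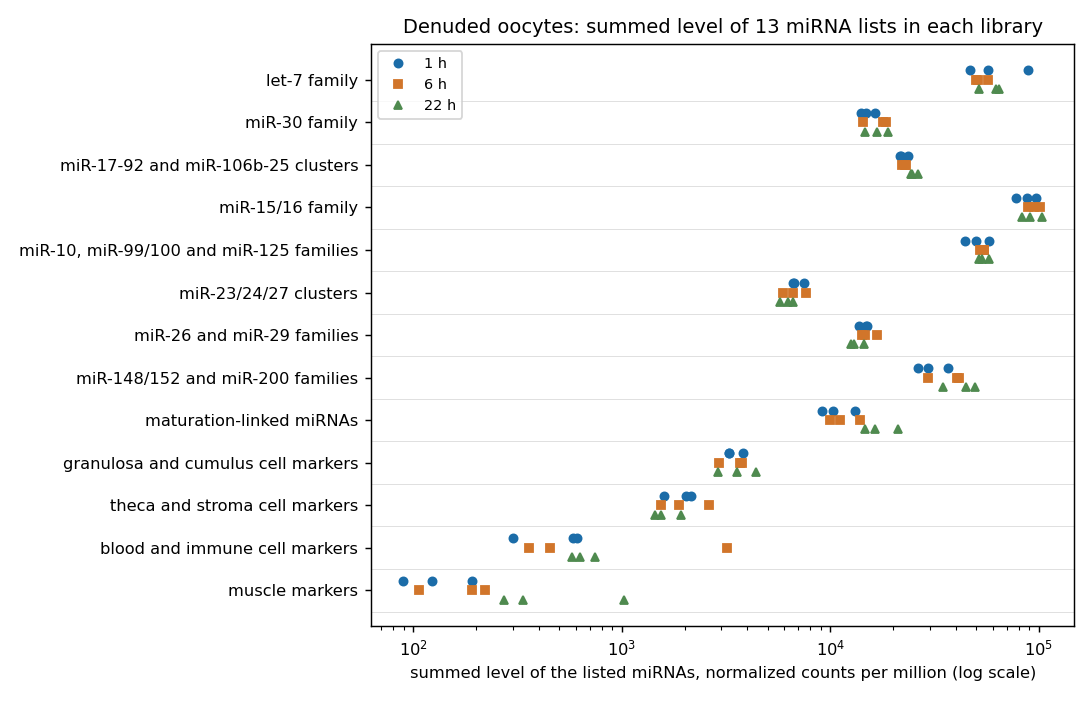
Summed level in CPM (horizontal log axis) of each of 13 miRNA lists in the 9 DO libraries, coloured by time, with 1 point per library. The sums at 1 h and 22 h overlap in 10 of the 13 lists, the blood and immune sum of 3201 CPM belongs to the second replicate at 6 h, and the muscle sums at 22 h, 271 to 1028 CPM, lie above those at 1 h.

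To ask whether the change from 1 h to 22 h belonged to denuded oocytes, it was set against the same interval in each other group as an interaction, over 12 libraries each. Against control, 0 of 503 miRNAs passed and 23 (4.57%) had an unadjusted p under 0.05, and DESeq2 called 0. Against cocult, 0 of 499 passed and 17 (3.41%) had such a p, while DESeq2 called 3. Against CBX, 4 of 520 passed (0.769%), all with a higher change in DO, 27 (5.19%) had an unadjusted p under 0.05, and DESeq2 called 4. The 3 interactions share the DO libraries.

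The change of bta-miR-155 did not pass in any of the 3 interactions. In these fits bta-miR-155 also rose from 1 h to 22 h in the other groups. The log2 change was 4.62 ± 0.41 (SE) in control, 3.33 ± 0.65 in cocult and 2.23 ± 0.61 in CBX. Control libraries were at 301, 456 and 170 CPM at 1 h and at 6727, 12588 and 3958 CPM at 22 h, and the DO change minus the control change was -0.22 on the log2 scale (interval -1.45 to 1.01). The difference was 1.07 (interval -0.92 to 3.07) against cocult and 2.18 (interval 0.27 to 4.10, unadjusted p = 0.029 by edgeR) against CBX. The adjusted p by edgeR was 0.99, 0.97 and 0.83, and all 3 intervals include a difference of 1 in favour of DO.

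Predicted miR-559 differed most from the CBX group. CBX libraries went from 9449, 3325 and 4311 CPM at 1 h to 3274, 658 and 5382 CPM at 22 h, and the DO change exceeded theirs by 4.23 ± 0.63 on the log2 scale (SE, interval 2.86 to 5.59, adjusted p = 0.0042 by edgeR). Predicted miR-560 has the same values, and predicted miR-835 differed by 4.12 ± 0.62 (SE, adjusted p = 0.0042). Without the replicate block these adjusted p-values were 0.15 and 0 miRNAs passed. Without replicate 1 of all groups predicted miR-559 had an adjusted p of 0.10 and without replicate 2 one of 0.22, and 0 miRNAs passed in either fit, nor in a fit over all 39 libraries. The CBX library at 658 CPM is the shallowest of the 36 at 1, 6 and 22 h, with 18796 counts. Without it, a setting chosen after seeing the data, the difference for predicted miR-559 was 3.77 with an adjusted p of 0.016.

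Against control the same miRNA differed by 3.17 (interval 1.08 to 5.25, adjusted p = 0.58) and against cocult by 2.61 (interval 1.05 to 4.17, adjusted p = 0.32). Control libraries were at 7207, 5206 and 1309 CPM at 1 h and 1786, 6273 and 2752 CPM at 22 h, and cocult libraries at 5768, 4330 and 2775 CPM and 2419, 7511 and 8522 CPM. The DO libraries at 22 h, at 11223 CPM or more, were above all 9 libraries of the other groups at that time. Predicted miR-559 was picked for its rise in DO, and how many of all miRNAs show such a separation was not counted. At 1 h the DO mean of 1864 CPM was below the means of the other groups, 4291 to 5695 CPM. Single DO libraries overlapped there with control and cocult. Against CBX they did not, with DO at 3133 CPM or less and CBX at 3325 CPM or more, so the CBX difference starts from unequal 1 h levels.

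Predicted miR-895 had 36, 10 and 12 counts in CBX at 1 h and 2, 1 and 6 at 22 h. Its difference from DO of 4.43 ± 0.84 (SE, adjusted p = 0.027 by edgeR) thus rests on CBX counts near the floor. In that fit predicted miR-895 changed by 2.30 in DO and by -2.13 in CBX on the log2 scale. The adjusted p of this difference was 0.15 without the block, 0.10 without the shallow CBX library and 0.070 without the shallow DO library. Against control predicted miR-895 differed by 1.64 (interval 0.56 to 2.72, adjusted p = 0.58 by edgeR) and against cocult by 2.36 (interval 0.94 to 3.78, adjusted p = 0.32). Predicted miR-318-0 differed by 2.36 (interval 0.70 to 4.03) against control, 2.12 (0.26 to 3.97) against cocult and 2.04 (0.48 to 3.60) against CBX, none past the threshold. Predicted miR-723 differed by -0.84 (interval -1.51 to -0.17) against control, -0.64 (-1.29 to 0.01) against cocult and -0.59 (-1.32 to 0.14) against CBX, also without a call. Zona removal was described for denuded oocytes, not for complexes. That step and the absence of cumulus cells therefore cannot be told apart in the comparisons with control and CBX. In the comparison with CBX, carbenoxolone is a further difference that cannot be told apart from these.

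**Figure D5:**
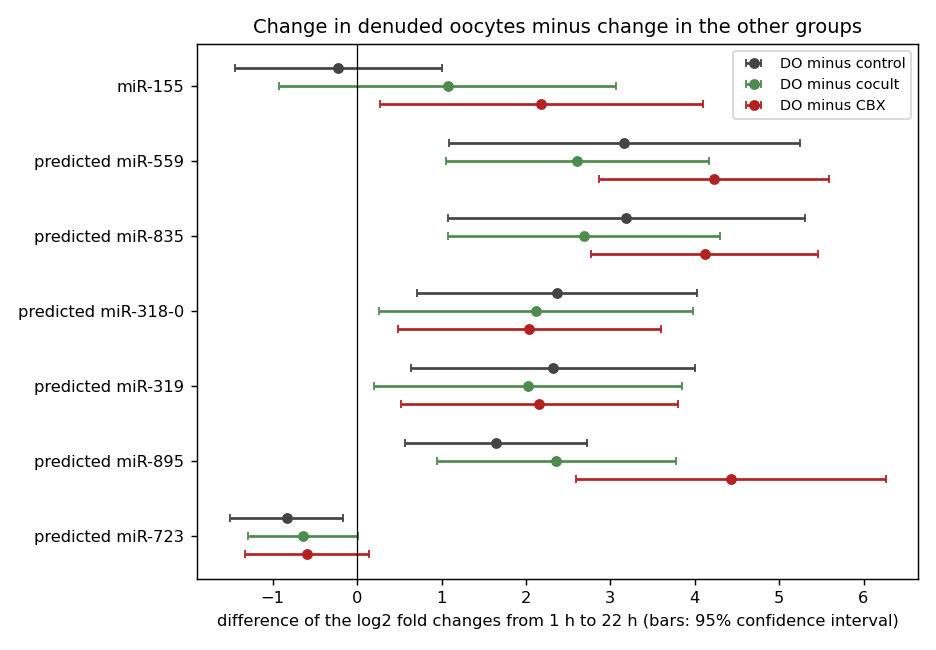
Log2 fold change from 1 h to 22 h in DO minus that in control, cocult or CBX for 7 called miRNAs, with 95% confidence intervals from edgeR interactions. Intervals for bta-miR-155 against control and cocult span 0, and those of predicted miR-559, miR-835 and miR-895 against CBX, at 4.23, 4.12 and 4.43, lie farthest to the right.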

How the data were processed

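Small RNA libraries were made with a kit that adds unique molecular identifiers. The authors trimmed and deduplicated the forward reads (UMI-tools 1.1.2 in the submitters' processing notes, which also list FastQC 0.11.9), aligned them to ARS-UCD1.2, assigned them to miRBase or predicted miRNAs with miRPro, and deposited the results as raw counts per mature miRNA, without normalization. The rule for reads shared between copies is not given in the sources used here. Known and predicted counts were joined. Deduplicated reads per library, as listed by the study, entered the fits only as alternative library sizes. The miRNA counts were 0.399% to 1.31% of them in the DO libraries.

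Each comparison used its own 6 libraries (12 for an interaction) in edgeR 4.0.16 with limma 3.58.1 in R 4.3.3, with filterByExpr (minimum count 10, minimum total 15), TMM normalization, the edgeR 3 form of the quasi-likelihood F-test without its robust option, the replicate number as block and Benjamini-Hochberg adjustment within the comparison. The SE is the log2 fold change divided by the square root of F. Printed CPM were normalized over the 36 libraries at 1, 6 and 22 h. The procedure was tested on simulated data.

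The block follows the study's design, in which ovary pool was a batch, and the replicate numbers of the labels were taken as those pools. Deviations of same-numbered libraries correlated by 0.34, 0.42 and 0.42 between 1 h and 6 h, by -0.07, -0.01 and 0.14 between 6 h and 22 h, and by 0.02, -0.10 and 0.23 between 1 h and 22 h.

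Named miRNAs are all those called, where 10 or fewer, plus the most counted member and called members of each list. Members and lists were chosen with earlier results of these data known. DESeq2 1.42.0 and other filters, scalings, blocks and left-out libraries were alternatives. Libraries at 0 h were used only in the fit over all 39 libraries.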

Additional observations from a re-analysis of the deposited data

Results flagged for a closer look

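The change from 1 h to 22 h differed between DO and CBX oocytes by a test of the difference itself for 4 predicted miRNAs of 520. The DO change minus the CBX change on the log2 scale was 4.23 for predicted miR-559 and for predicted miR-560, which share their counts. Their adjusted p was 0.0042 (edgeR interaction). This difference was 4.12 for predicted miR-835 (adjusted p = 0.0042) and 4.43 for predicted miR-895 (adjusted p = 0.027). In these fits the change in CBX itself was -1.07 for predicted miR-559, -0.98 for predicted miR-835 and -2.13 for predicted miR-895. Without the replicate block 0 miRNAs passed (adjusted p = 0.15 for predicted miR-559), as without replicate 1, without replicate 2 and in the fit over all 39 libraries. In the 3 replicate pairs of DO, all 4 were higher at 22 h, as were 85 of the 442 miRNAs tested in DO alone. The 4 were already called higher in these same DO libraries, so this adds no evidence for the difference from CBX. The adjusted p of predicted miR-559 ran from 4.7e-09 to 0.58 over 16 alternatives, and the estimate from 3.37 to 5.43.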

How the results depend on the processing

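The replicate block moved some counts of calls: without it, 5 miRNAs passed from 6 h to 22 h instead of 0, and 0 instead of 4 in the interaction with CBX, whereas from 1 h to 22 h only the call of predicted miR-895 was lost (2.33, adjusted p = 0.12) and the counts of the other comparisons stayed at 0. Same-numbered libraries deviated together between 1 h and 6 h only. From 6 h to 22 h, 7 passed with DESeq2, 18 without the low-count filter, 5 with a mean count of at least 50, 3 with library sizes from deduplicated reads, 5 with known and predicted miRNAs fitted separately and 5 with the robust option. From 1 h to 22 h, 4 passed with a mean count of at least 50, 4 with deduplicated library sizes and 1, bta-miR-155, in a fit over all 39 libraries. The interaction with cocult gave 3 with DESeq2 and 6 with deduplicated library sizes, and that with CBX gave 0 in the fit over all 39 libraries. Leaving out a replicate number gave 0 to 6 calls from 1 h to 6 h, 0 to 26 from 6 h to 22 h, 0 to 52 from 1 h to 22 h and 0 to 3 against CBX. Such fits have fewer samples. The cause of the other shifts was not tested.

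Deduplicated library sizes moved the median of all miRNAs by 0.27 from 1 h to 6 h, by -0.42 from 6 h to 22 h, by -0.29 in the interaction with control and by 0.57 in that with CBX. Of 867 recomputed values of single miRNAs, 9 changed sign, none of them of a miRNA called in that comparison. Bta-miR-184 from 1 h to 6 h went from -0.08 to 0.20 with deduplicated library sizes, and from -0.59 to 0.20 when replicates were left out (0.19 without replicate 2). In that step the range over left-out replicates was -0.0031 to 0.56 for bta-miR-3432a and -0.30 to 0.45 for predicted miR-895. Predicted miR-723 from 6 h to 22 h ran from -0.20 to 0.056 when replicates were left out, and its interaction with CBX was 0.034 with deduplicated library sizes. The bta-miR-155 interaction with control ran from -0.43 to 0.25, and was 0.095 without the second DO replicate at 1 h. From 1 h to 22 h, bta-miR-155 stayed between 4.22 and 5.20 and passed under 15 of 16 alternatives, predicted miR-559 under 14, predicted miR-318-0 under 10 and predicted miR-723 under 8. Depth limits what low miRNAs such as predicted miR-895 can show.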

Other observations

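The lowest estimate of all 442 miRNAs from 1 h to 22 h, chosen after its value was seen, belonged to predicted miR-597, which has the same values as predicted miR-598 and miR-599. It was at 623, 184 and 263 CPM at 1 h and at 57, 282 and 32 CPM at 22 h, so that the times overlapped, and its log2 change of -1.83 ± 0.72 (SE) did not pass (adjusted p = 0.36 by edgeR). Among the 17 predicted miRNAs with a listed sequence that were tested, the 3 with a GC content of at least 80% had a median log2 change of 2.19 and the 14 below it a median of 0.06, with a range from -1.13 to 1.17. The 17 share the same 6 libraries and come from the study's list of differentially expressed predicted miRNAs. Predicted miR-723 and predicted miR-589 are on that list, although neither appears among the differences between groups that the study reports. The 3 with the high GC content are among the called miRNAs, so this is a description.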
